A study of Saccharomyces cerevisiae with 31 samples.

Results

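The genes described here are RPN4 and the 32 genes that encode subunits of the proteasome in Saccharomyces cerevisiae, chosen by gene symbol in the array annotation. Each of the 33 genes had 1 probe set, and each passed the intensity filter, out of 5422 probe sets tested in all. Transcript levels came from 31 Affymetrix Yeast 2.0 arrays of the laboratory strain CEN.PK122, grown aerobically in continuous culture with no treatment named, where cells oscillated of their own accord between respiratory and reductive metabolism. The period is labelled as 2 h. Successive samples of total RNA lay 4 min apart, the first at 12.53 h and the last at 14.53 h. Each array has a labelled phase angle, from 5.93 to 362.01 degrees, so by angle the series falls just short of 1 full cycle. There is 1 array per angle, no control group and no replicate of any angle, so the arrays are treated as 1 culture and errors measure scatter around a fitted curve.

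The proteasome is the protease that breaks down proteins tagged with ubiquitin. Its barrel-shaped core particle, called 20S, is built of an outer alpha ring and an inner beta ring, each present as a pair, and the peptide bonds are cut by beta subunits. A regulatory cap, called 19S, sits on the core: its base holds the Rpt ATPases, which unfold the substrate and thread it into the core, and its lid holds the enzyme that removes ubiquitin. Rpn4, despite its name, is not a stable subunit but a transcription factor that activates the subunit genes and is itself quickly degraded by the proteasome, which forms a feedback loop. In yeast the genes of the subunits are known to be expressed in near balance.

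Array medians over S. cerevisiae probe sets ran from 1056 to 2142 on the deposited scale, a 2.03-fold difference, and values below are log2 intensities after quantile normalization unless stated otherwise, so each change is relative to the bulk of transcripts on its array. Poly-A spike controls, set against hybridization spikes, split the arrays into the 16 with the lower numbers in their descriptions (-4.37 to -3.68 on the log2 scale) and the 15 with the higher numbers (-5.41 to -4.78). The meaning of these numbers is not given in the labels. The 3 arrays at 17.80, 29.67 and 41.54 degrees all belong to the higher-numbered set, as do the 5 from 100.88 to 148.35 degrees, whereas the 4 from 53.41 to 89.01 degrees belong to the lower-numbered set. Results are therefore also given within each set.

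All 33 genes were low at the start of the cycle and high over its middle. RPN4 varied most among them, with a fitted swing, the log2 difference between peak and trough of a cosine fitted over phase, of 0.98 ± 0.14 (SE, n = 31 arrays), and the 32 subunit genes had fitted swings from 0.28 to 0.69 with a median of 0.50. In this fit the peaks of all 33 lay between 190.8 and 223.7 degrees. All 33 passed limma's moderated F-test for variation with phase at an adjusted p under 0.05, with adjusted p-values from 1.34e-07 for SCL1 to 0.000725 for RPT5. This share is to be read against 89.1% of all probe sets tested that passed. On the deposited scale, without normalization, 19 of the 33 passed, and 30 passed once a correlation between successive arrays was allowed for. Shares of all probe sets tested are given for the main fit only. Counts under alternatives, here and below, thus do not show whether a loss of calls is particular to these genes. In RNA from a whole culture, a change in fewer cells and a change in RNA per cell cannot be told apart. None of the 33 reached a swing of 2-fold in the fit (1 or more on the log2 scale), against 23.1% of all probe sets tested, and the median swing over all probe sets tested was 0.54, so the subunit genes varied about as much as a typical probe set. RPN4 lay just below that mark, and above it, at 1.28, in the curve with 3 harmonics described next. In the same fit 33 of 33 peaked from 180 to 240 degrees, against 25.9% of all probe sets tested. The position of the peak depended on the model and the scale. With a linear trend over the series as a further term, 4 of the 33 (PUP1, RPT1, RPN5 and RPN13) peaked in that window and the peaks ran from 155.3 to 192.9 degrees. With median centring 27 did, with peaks from 168.6 to 196.4 degrees, and on the deposited scale 30 did, with peaks from 196.1 to 268.6 degrees. The curve with 3 harmonics was highest between 117 and 218 degrees, within the window for 8 genes, so the peaks given below are those of the single cosine.

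**Figure D1:**
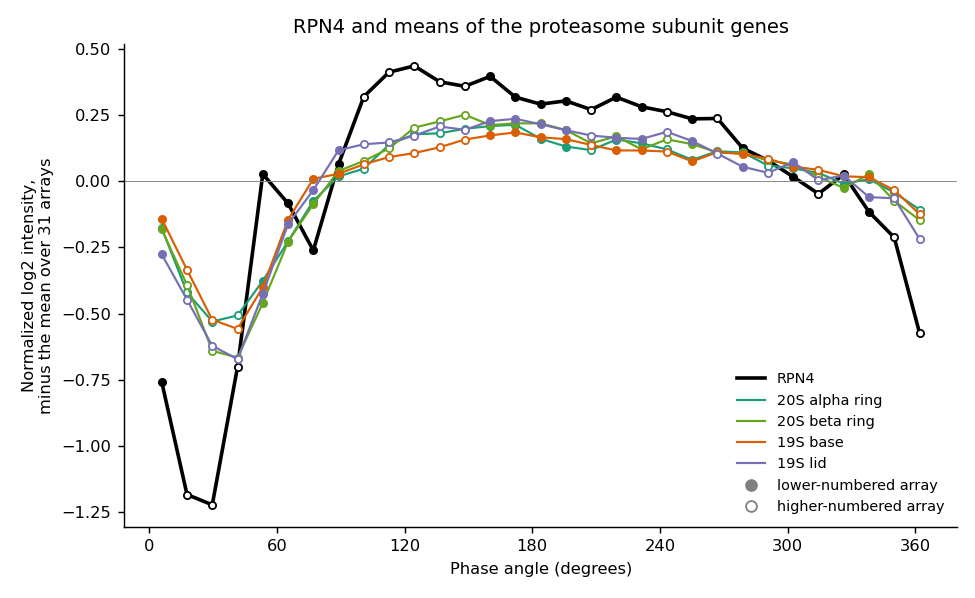
Normalized log2 intensity minus the mean over 31 arrays (vertical axis) against phase angle in degrees (horizontal axis) for RPN4 (black) and for the means of the alpha ring, beta ring, base and lid genes. Filled points are the lower-numbered and open points the higher-numbered arrays; RPN4 is lowest at 29.67 degrees, at -1.22, and is back at 0.03 by 53.41 degrees, where all 4 subunit means are still below 0.

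The profile was a short dip and a long plateau. The mean of the 32 subunit genes, each centred on its own mean, was -0.39 ± 0.19 from 0 to 60 degrees (SD, n = 6 arrays at different angles), 0.01 ± 0.12 from 60 to 120 degrees, 0.19 ± 0.02 from 120 to 180 degrees, 0.16 ± 0.02 from 180 to 240 degrees, 0.10 ± 0.03 from 240 to 300 degrees and 0.01 ± 0.04 from 300 to 360 degrees (SD, n = 5 arrays each). The mean was lowest at 41.54 degrees, at -0.60, and highest at 172.09 degrees, at 0.21. A single cosine described this shape only in part. Terms at 2 and 3 times the angle passed their own moderated F-test for 33 of 33 genes, against 86.1% of all probe sets tested, with adjusted p-values (limma) from 3.31e-09 for PRE3 to 0.00406 for RPN13. They passed for 24 of the 33 once a correlation between successive arrays was allowed for. With these terms the curve reached its lowest point between 24 and 45 degrees in every one of the 33 genes. This count was not set against all probe sets tested. The single cosine accounted for 41.2% to 70.6% of the variance of the 33 genes over the arrays, and the curve with 3 harmonics for 68.9% to 94.9%.

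The lowest array was at 41.54 degrees for 20 of the 32 subunit genes, at 29.67 degrees for 10 and at 17.80 degrees for the other 2, SCL1 and PRE9. These 30 genes with the lowest array at 29.67 or 41.54 degrees compare with 26.5% of all probe sets tested. The highest arrays were more scattered, from 124.62 degrees for PRE10 to 255.17 degrees for RPN5, with 9 genes highest at 148.35 degrees and 7 at 172.09 degrees. Profiles of the subunit genes resembled each other closely: over the 496 pairs, Pearson's r over the 31 arrays ran from 0.71 to 0.99 with a median of 0.94, a description of arrays that share the same cycle and are not independent.

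**Figure D2:**
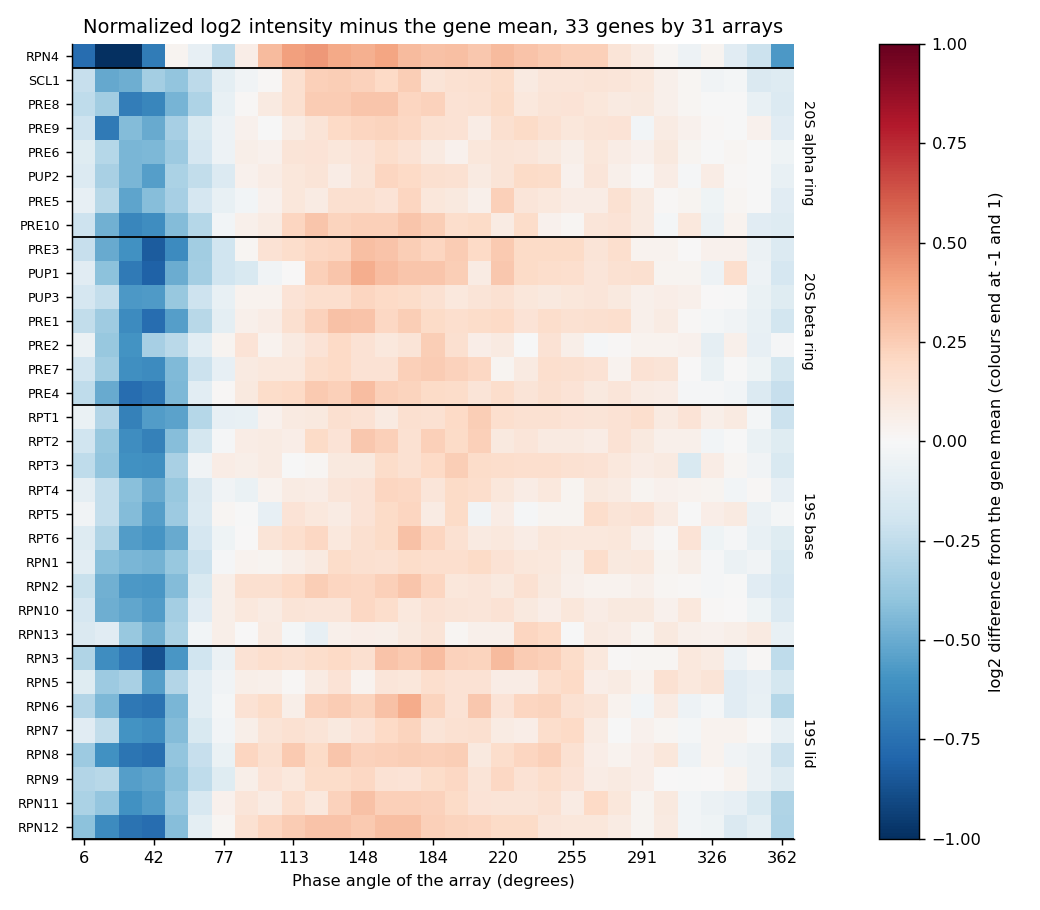
Each row is a gene and each column an array in order of phase angle in degrees; colour gives the normalized log2 intensity minus the gene's own mean, from blue (below) to red (above). RPN4 is the top row and the subunit genes follow by alpha ring, beta ring, base and lid; the darkest blue lies from 17.80 to 53.41 degrees for the subunit genes and from 5.93 to 41.54 degrees for RPN4.

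Among the alpha ring genes, whose products form the gated outer ring of the core, all 7 passed and none reached a fitted swing of 2-fold. On the deposited scale 3 of the 7 passed, and PRE9, PRE6, PUP2 and PRE5 did not. SCL1 had a lowest normalized intensity of 4557, at 17.80 degrees, a median of 6924 and a highest of 7729, at 172.09 degrees. Its fitted swing was 0.50 ± 0.06 with a peak at 202.5 ± 7.2 degrees (SE, adjusted p = 1.34e-07, limma). PRE8 ran from 4094 at 29.67 degrees through a median of 7036 to 8007 at 148.35 degrees. Its swing of 0.57 ± 0.08 was the largest of this ring (SE, adjusted p = 1.25e-06, limma), followed by PRE10 with 0.55, SCL1, PRE9 with 0.48, PUP2 with 0.42 and PRE5 with 0.40. PRE9 encodes the one subunit of the core that yeast can live without. PRE6 had the smallest swing of the ring, 0.35 ± 0.06 (SE, adjusted p = 2.32e-05, limma), and its intensity ran from 7820 through a median of 11184 to 12138. The mean of the ring had a swing of 0.47 ± 0.06 and peaked in the fit at 204.7 ± 8.1 degrees (SE). The swing was 0.38 within the lower-numbered and 0.59 within the higher-numbered arrays.

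The beta ring holds the cutting sites of the core. PRE3, PUP1 and PRE2 encode the 3 beta subunits with a catalytic threonine, which cut after acidic, basic and hydrophobic residues in turn. All 7 genes of the ring passed, and all but PRE2 also did so on the deposited scale. PRE3 ran from 4647 at 41.54 degrees through a median of 9020 to 10183 at 148.35 degrees, a 2.19-fold span between single arrays, and its fitted swing was 0.67 ± 0.09 (SE, adjusted p = 5.78e-07, limma). PUP1 ran from 3191 at 41.54 degrees through a median of 5932 to 7203 at 148.35 degrees, a 2.26-fold span, with a fitted swing of 0.66 ± 0.09 (SE, adjusted p = 6.56e-07, limma). The catalytic gene PRE2 varied less, from 4449 at 29.67 degrees through a median of 6898 to 7978 at 183.96 degrees, with a fitted swing of 0.35 ± 0.07 (SE, adjusted p = 0.000126, limma). It did not pass once a correlation between successive arrays was allowed for, where its swing was 0.31 (adjusted p = 0.136, limma). The genes of the beta subunits that lack a cutting site lay between these values, with fitted swings of 0.61 for PRE1, 0.60 for PRE4, 0.52 for PRE7 and 0.45 for PUP3. The mean of the ring had a swing of 0.55 ± 0.08 and peaked in the fit at 204.4 ± 8.2 degrees (SE). The swing was 0.43 within the lower-numbered and 0.70 within the higher-numbered arrays.

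The base genes, 6 for ATPases, 2 for scaffolds and 2 for ubiquitin receptors, had the smallest mean swing. All 10 passed, and their fitted swings ran from 0.28 to 0.52. On the deposited scale 3 of the 10 passed, RPT1, RPT2 and RPN1, and the other 7 did not. RPN1, a scaffold that docks ubiquitin-carrying shuttle proteins, ran from 6169 at 41.54 degrees through a median of 8893 to 9768 at 207.69 degrees, with a fitted swing of 0.45 ± 0.06 (SE, adjusted p = 3.85e-07, limma). The ATPase gene RPT1 ran from 4386 at 29.67 degrees through a median of 7466 to 8283 at 207.69 degrees, with a fitted swing of 0.52 ± 0.08 and a late peak at 220.0 ± 8.6 degrees (SE, adjusted p = 2.35e-06, limma). The other ATPase genes had fitted swings of 0.51 for RPT2, 0.49 for RPT3, 0.46 for RPT6, 0.38 for RPT4 and 0.32 for RPT5. RPN2, the second scaffold, had the earliest peak of the 33 genes in the single-cosine fit, at 190.8 ± 9.3 degrees (SE), with a swing of 0.50 and intensities from 4058 through a median of 6281 to 7351.

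Of the ubiquitin receptor genes, RPN10 varied by 0.42 with a peak at 203.3 degrees. RPN13 had the smallest swing of all 33 genes and, in the same fit, the latest peak, 0.28 ± 0.06 at 223.7 ± 12.9 degrees (SE, adjusted p = 0.000682, limma), and ran only from 2770 at 41.54 degrees through a median of 4002 to 4494 at 231.43 degrees. The call for RPN13 was lost with serially correlated arrays (swing 0.27, adjusted p = 0.184, limma) and within the lower-numbered arrays (swing 0.20, adjusted p = 0.0608, limma). That for RPT5 was also lost with serially correlated arrays (swing 0.30, adjusted p = 0.179, limma). The mean of the base genes had a swing of 0.43 ± 0.07 and peaked in the fit at 207.6 ± 8.9 degrees (SE). The swing was 0.32 within the lower-numbered and 0.56 within the higher-numbered arrays.

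The lid genes had the largest mean swing over the 31 arrays, although within the lower-numbered arrays it did not exceed that of the beta ring. All 8 passed, and on the deposited scale 6 of the 8 did, without RPN5 and RPN7. RPN11, which encodes the metalloprotease that takes ubiquitin chains off the substrate, ran from 2805 at 29.67 degrees through a median of 4566 to 5221 at 148.35 degrees, with a fitted swing of 0.56 ± 0.07 at 196.3 ± 7.2 degrees (SE, adjusted p = 1.4e-07, limma). The scaffold gene RPN6 ran from 4216 at 41.54 degrees through a median of 7430 to 9085 at 172.09 degrees, with a fitted swing of 0.64 ± 0.08 (SE, adjusted p = 3.2e-07, limma). RPN3 and RPN12, both for structural lid subunits, had the largest swings of the 32 subunit genes, 0.69 ± 0.10 and 0.69 ± 0.09 (SE). RPN3 had its lowest intensity, 2710, at 41.54 degrees, a median of 5335 and its highest, 6150, at 219.56 degrees. This 2.27-fold span was the widest among the subunit genes, and the 1.55-fold span of PRE6 the narrowest. RPN12 ran from 2608 through a median of 4776 to 5453. RPN8, the partner of RPN11, varied by 0.64, RPN9 by 0.49 and RPN7 by 0.43. RPN5 ran from 5538 through a median of 8513 to 9294 and had the smallest swing of the lid, 0.38 ± 0.06 with a peak at 213.8 ± 9.2 degrees (SE, adjusted p = 7.24e-06, limma). The mean of the lid genes had a swing of 0.56 ± 0.08 and peaked in the fit at 200.2 ± 7.9 degrees (SE). The swing was 0.43 within the lower-numbered and 0.72 within the higher-numbered arrays.

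The lid and the beta ring had larger swings than the base and the alpha ring. The array-by-array difference of lid and base means had a fitted swing of 0.15 ± 0.02 (SE), that of beta ring and base means 0.12 ± 0.02, and that of alpha ring and lid means 0.10 ± 0.03. The alpha and beta rings, which make up the same particle, differed by 0.08 ± 0.02. The smallest differences were those of the beta ring and the lid, 0.04 ± 0.02, and of the alpha ring and the base, 0.05 ± 0.02 (SE). These are descriptions, with SEs that take the arrays as independent, and each is small beside the swing of any of the means. The 4 means peaked between 200.2 and 207.6 degrees, with SEs of 7.9 to 8.9 degrees. The means share the same arrays, so these SEs do not measure the error of a difference between peaks, which was not tested.

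RPN4 (YDL020C) had a larger swing than the genes it activates. The mid-point of its rise was also earlier, as it was against 92.3% of other probe sets with their lowest array from 17.80 to 41.54 degrees. The normalized intensity of RPN4 was 3503 at 5.93 degrees, 2609 at 17.80 degrees, 2540 at 29.67 degrees and 3645 at 41.54 degrees. It then stood at 6040 at 53.41 degrees, 5593 at 65.28 degrees, 4944 at 77.14 degrees and 6198 at 89.01 degrees. From 100.88 to 267.03 degrees all arrays lay between 6979 and 8016, with the highest at 124.62 degrees, 3.16-fold above the lowest. Later arrays were lower, with 5116 at 350.11 degrees and 3983 at 362.01 degrees, close in angle to the first array of the series. On the deposited scale the values at 17.80, 29.67 and 41.54 degrees were 2686, 2872 and 2897, against 5905 at 53.41 degrees, so the step was there before normalization too. The highest deposited value was 8336, at 243.30 degrees, so the position of the highest array depended on the scale. The fitted swing of RPN4 (0.98 ± 0.14, SE, adjusted p = 1.44e-06, limma) was 0.63 within the lower-numbered arrays, which hold none of the arrays from 17.80 to 41.54 degrees, and 1.37 within the higher-numbered arrays.

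The log2 ratio of RPN4 to each subunit gene varied with phase for 32 of 32 genes (limma's moderated F-test, adjusted over all probe sets tested), with adjusted p-values from 2.33e-05 for RPN13 to 0.0312 for RPN12. This was also so for 91.7% of all probe sets tested, so it says little about the subunit genes in particular. The ratio passed for 7 of 32 genes when arrays were treated as serially correlated and for 2 of 32 within the lower-numbered arrays. The ratio of RPN4 to the mean of the 32 subunits had a fitted swing of 0.50 ± 0.11 (SE).

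Timing was read from the observed profiles as the angle at which each gene crossed the midpoint between its lowest and highest array on the way down (mid-fall) and on the way up (mid-rise), by linear interpolation between arrays, with the end of the series joined to its start. RPN4 had its mid-fall at -3.9 degrees, that is just before the end of the cycle, and its mid-rise at 46.6 degrees. The 32 subunit genes had a median mid-fall at 6.5 degrees and a median mid-rise at 65.5 degrees. The mid-rise of RPN4 was earlier than that of all 32 subunit genes, by 12.7 to 28.4 degrees with a median of 18.9 degrees, or 6.38 min. As given above, 92.3% of other probe sets lowest from 17.80 to 41.54 degrees also had a later mid-rise than RPN4. The mid-fall of RPN4 was earlier than in 31 of 32 subunit genes, by a median of 10.4 degrees, or 3.52 min. The exception was RPN11, with a mid-fall at -9.6 degrees. The count for the mid-fall was not set against all probe sets tested. Arrays were 4 min apart, so the median delay of the mid-rise lay between 1 and 2 sampling steps and that of the mid-fall below 1.

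**Figure D3:**
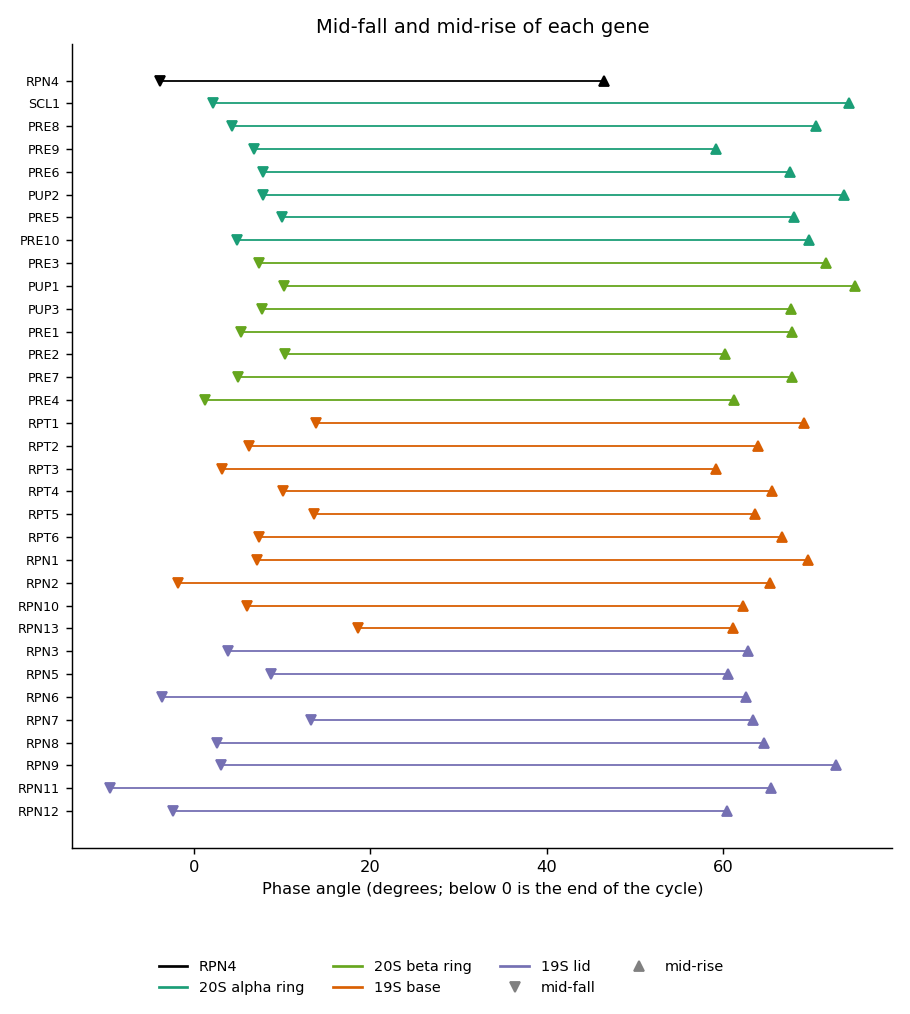
Mid-fall (downward triangles) and mid-rise (upward triangles) of each gene in degrees, joined by a line that spans the low part of its profile; angles below 0 are the end of the cycle. The mid-rise of RPN4 at 46.6 degrees lies left of that of every subunit gene, which run from 59.2 degrees for RPT3 to 75.0 degrees for PUP1.

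The order on the way up was the same on other scales and in the angles read within each set of arrays. The mid-rise was at 40.8 degrees for RPN4 and at a median of 72.9 degrees for the subunit genes within the lower-numbered arrays, and at 59.4 and 75.8 degrees within the higher-numbered arrays, each with all 32 subunit genes later. The lower-numbered set has no array between 5.93 and 53.41 degrees, and the higher-numbered set none between 41.54 and 100.88 degrees. All mid-rises within the higher-numbered set, from 59.4 to 87.7 degrees, were interpolated across its gap, so that set cannot test the order. Within the lower-numbered set RPN4 crossed inside the gap and the subunit genes after it, at 64.3 degrees or later. Angles within sets are therefore coarse and do not measure the size of the delay. On the deposited scale the values were 49.7 degrees for RPN4 and 58.5 degrees for the subunit genes, and with median centring 47.0 and 78.7 degrees, again with 32 of 32 later. Being later than RPN4 was common, however: of the 1787 other probe sets with their lowest array from 17.80 to 41.54 degrees, 92.3% had a later mid-rise than RPN4. The count of 32 of 32 is therefore near that background.

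RPN4 also paused on its way up where the subunit genes did not. Between 53.41 and 77.14 degrees, in 3 consecutive arrays of the lower-numbered set, it fell by 0.29 on the log2 scale, while the mean of the 32 subunit genes gained 0.37. All 32 subunit genes were higher at 77.14 than at 53.41 degrees, as were 53.7% of the other probe sets tested. In the step just before, from 41.54 to 53.41 degrees, RPN4 gained 0.73 and the subunit mean 0.18, but this step joins arrays of different sets, whose part in it was not tested. On the deposited scale RPN4 stood at 5905 at 53.41 degrees, 6428 at 65.28 degrees and 5133 at 77.14 degrees, so the fall was not steady there. The pause rests on single arrays and was not tested.

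Shifting the profiles against each other gave the same order. Over the 31 arrays RPN4 and the mean of the 32 subunit genes had a Pearson's r of 0.87 and a Spearman's rho of 0.90 at the same array. With the subunits read 1 array, or 4 min, later, r was 0.97 over 30 pairs, at 8 min 0.93 over 29 pairs and at 12 min 0.81, whereas with the subunits 4 min earlier it was 0.68. For single genes, 30 of 32 had their highest r with RPN4 at 4 min later, against 12% of the other probe sets tested. That share covers probe sets of every phase. The share among probe sets with their lowest array at the same angles as the subunit genes was not taken, so the contrast may reflect shared phase alone. The other 2 subunit genes, PRE9 and RPN1, had their highest r at 8 min, with 0.94 and 0.95. These values are descriptions of 1 cycle whose arrays are not independent. They depend on the scale and on a single array: the count of 30 was 3 on the deposited scale, 18 with median centring and 11 without the array at 29.67 degrees.

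**Figure D4:**
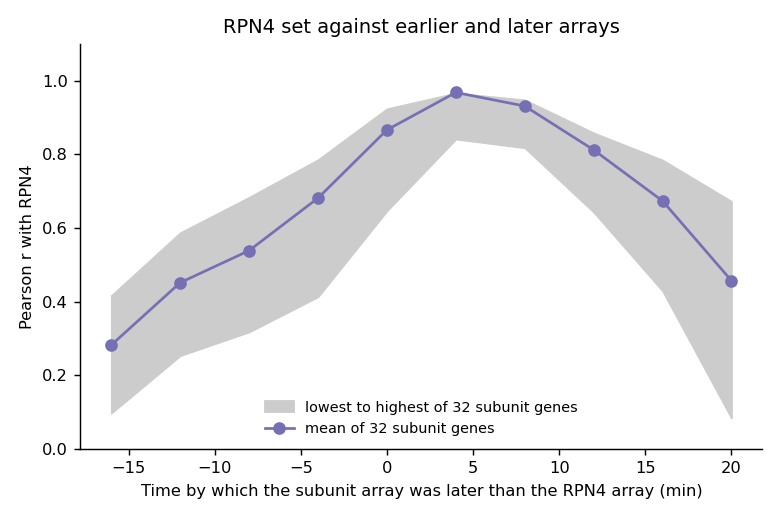
Pearson's r between RPN4 and the subunit genes (vertical axis) when the subunit array is taken earlier (negative) or later (positive) than the RPN4 array, in min. The line is the mean of the 32 subunit genes, highest at 4 min with 0.97, and the grey band spans the lowest to the highest single gene.

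Other genes followed RPN4 more closely than the subunit genes did at the same array. The 5 genes with the highest Pearson's r with RPN4 over the 31 arrays were FES1, for a nucleotide exchange factor of Hsp70 (0.98), MBF1, for a transcriptional coactivator (0.97), APJ1 and SIS1, for Hsp40 co-chaperones (0.97 each), and OPI10, related to a human nuclear import carrier of Hsp70 (0.97). Their mid-rises lay between 45.5 and 51.6 degrees, against 46.6 degrees for RPN4. This closeness follows largely from picking the genes by their r with RPN4 over the same arrays. MBF1 varied by 1.07, APJ1 by 1.15, SIS1 by 0.94, FES1 by 0.78 and OPI10 by 2.02 on the log2 scale. The subunit genes had r with RPN4 between 0.65 and 0.92, with ranks from 143 to 1716 among 5381 genes. The genes most like the mean of the 32 subunits were others again: COQ4, of coenzyme Q synthesis, PRX1, a mitochondrial peroxiredoxin gene, SOD2, for mitochondrial superoxide dismutase, GPT2, a glycerol-3-phosphate acyltransferase gene, and HFD1, a fatty aldehyde dehydrogenase gene, each with r of 0.99. All 5 had larger fitted swings than the subunit genes, from 1.05 for SOD2 to 1.98 for GPT2. Their mid-rises ran from 61.3 to 67.9 degrees, which likewise follows largely from the way they were picked.

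Genes that build and serve the proteasome had more widely spread fitted peaks than its subunits. Of 9 genes for assembly chaperones, which help the rings and the base to form and leave the finished particle, 8 passed, against 89.1% of all probe sets tested, and 5 of them peaked from 180 to 240 degrees, against 25.9%. ADD66 varied by 0.40 ± 0.04 with a peak at 192.2 degrees (SE, adjusted p = 7.53e-09, limma) and UMP1, which is degraded by the core it helps to mature, by 0.57 ± 0.07 at 219.6 degrees (SE, adjusted p = 4.47e-08, limma). IRC25, with 0.04 ± 0.06 (SE, adjusted p = 0.803, limma), did not pass, and POC4, whose product acts as a pair with that of IRC25, peaked near the start of the cycle, at 11.3 degrees, with a swing of 0.46. All 5 genes for proteasome partners passed and peaked from 180 to 240 degrees, against the same 89.1% and 25.9%. Among them BLM10, for an alternative cap of the core, varied by 0.85 ± 0.10 at 237.4 degrees (SE, adjusted p = 7.54e-08, limma), and ECM29, for a protein that clamps core and cap together, by 1.04 ± 0.16 at 202.4 degrees (SE, adjusted p = 5.68e-06, limma). The lid gene SEM1, which is not among the 32, varied by 0.34 with a peak at 230.5 degrees.

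All 13 genes that supply ubiquitin or deliver substrates passed, near the 89.1% of all probe sets tested, and 10 of them peaked from 180 to 240 degrees, against 25.9%. UBA1, for the ubiquitin-activating enzyme, varied by 0.67 ± 0.09 at 215.3 degrees (SE, adjusted p = 3.85e-07, limma) and UFD1, for a cofactor of the unfolding ATPase Cdc48, by 0.85 ± 0.11 at 186.4 degrees (SE, adjusted p = 5.61e-07, limma). Of the ubiquitin shuttle genes, DDI1 varied by 1.02 at 195.3 degrees, DSK2 by 0.45 at 192.2 degrees and RAD23 by 0.21 at 306.7 degrees. These shuttle genes, like POC4, SEM1 and the activators named next, were picked out after their values were seen.

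All 8 genes for known regulators of RPN4 passed, near the 89.1% of all probe sets tested, with 5 of them peaking from 180 to 240 degrees, against 25.9%. MUB1, which with UBR2 and RAD6 marks Rpn4 for degradation, varied by 0.92 ± 0.09 at 211.7 degrees (SE, adjusted p = 2.55e-09, limma), and HSF1, the heat shock transcription factor, which activates RPN4, by 0.60 ± 0.07 at 200.8 degrees (SE, adjusted p = 4.97e-08, limma). The activators YAP1 and PDR1 varied by 0.77 at 209.8 degrees and 0.50 at 222.7 degrees, while PDR3 varied by 0.15 at 42.5 degrees. Mid-rises of HSF1, YAP1 and PDR1, at 69.2, 61.1 and 74.3 degrees, were later than that of RPN4. That of PDR3 lay at 211.0 degrees. A later mid-rise was common, found in 92.3% of other probe sets with their lowest array from 17.80 to 41.54 degrees, which include HSF1 and YAP1. The lowest arrays of PDR1 and PDR3, at 53.41 and 195.82 degrees, lay after the mid-rise of RPN4, so their later mid-rise was fixed in advance. Any link of this order to regulation was not tested.

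**Figure D5:**
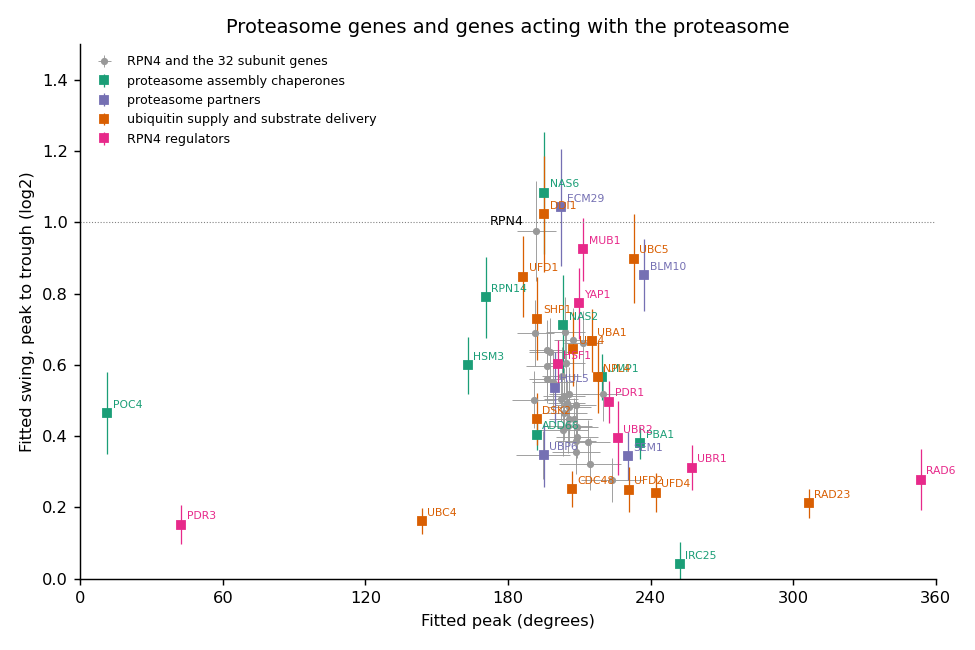
Fitted swing in log2 units (vertical axis) against fitted peak in degrees (horizontal axis) for RPN4 and the 32 subunit genes (grey) and for 4 lists of genes that act with the proteasome (coloured squares); vertical bars are SEs of the swing and, on grey points, horizontal bars SEs of the peak. The grey points gather between 190.8 and 223.7 degrees, whereas some squares lie elsewhere. POC4 at 11.3 degrees and RAD6 at 353.6 degrees stand at opposite edges of the plot but are close together on the cycle. The peak of IRC25, which did not pass, has an SE of 83.1 degrees.

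Set beside other genes of protein turnover and folding, the 32 subunit genes had a smaller median swing than the autophagy genes and a median peak away from that of the chaperonin. Their median fitted swing was 0.50 and their median fitted peak 204.9 degrees. Of 33 autophagy genes 32 passed, with a median swing of 1.08 and a median peak at 191.4 degrees, and 17 had swings of 2-fold or more. Over all probe sets tested 89.1% passed, so the counts passing here and in the next lists are near that share. A pass with a swing of 2-fold or more was found for 23.1% of all probe sets tested, a smaller share than among the autophagy genes. All 10 measured genes for vacuolar hydrolases passed, with a median swing of 0.76 and a median peak at 201.1 degrees. Of the 8 genes of the CCT chaperonin, a ring that folds actin and tubulin, 7 passed. This list had a median swing of 0.35 and a median peak at 344.8 degrees. Passing genes with a peak from 180 to 240 degrees numbered 23 for autophagy, 6 for vacuolar hydrolases and 0 for the CCT chaperonin. The share over all probe sets tested was 25.9%. The medians describe these lists and were not tested against each other.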

How the data were processed

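The authors deposited 1 linear signal intensity per probe set and array, from 0.1 to 24502, made with GCOS, per the submitters' processing notes. Neither its version nor its scaling is given in the labels. Intensities were taken to log2 and quantile normalized over 5498 S. cerevisiae probe sets, named through the array annotation and a gene table of assembly R64 (S288C; strain differences can lower single probe sets). Of these, 76 with a median at or under 17.04 (percentile 95 of the probe sets for other species) were dropped, and 5422 were tested. Variation with phase was fitted with limma 3.58.1 in R 4.3.3 as a cosine and a sine term of phase angle, with a moderated F-test and Benjamini-Hochberg adjustment over all probe sets, threshold 0.05. The same test was run on terms at 2 and 3 times the angle and on the log2 ratio of RPN4 to every probe set. Swings and peaks carry delta-method SEs. After the first harmonic, residuals of neighbouring arrays correlated (median 0.66, members 0.75; 0.07 after 3 harmonics), and SEs that ignore this are likely too small. The fits were tested on simulated cosines with independent noise, a setting that lacks this correlation and so does not test the SEs or p-values under it. Plots used Python 3.11.15 with matplotlib 3.10.9.

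Genes are named by rule: RPN4, in each ring, base or lid the 2 with the smallest p and the one with the smallest swing, members that lost their call or lay farthest out in peak, the 2 with the smallest p and any not passing in each list of partners, and the 5 most like RPN4 or the subunit mean. Members, lists and rules were chosen with earlier results of these data known. A motif search in promoters was not run, as no promoter sequences were used here. The number of arrays limits the precision.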

Additional observations from a re-analysis of the deposited data

How the results depend on the processing

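Alternatives were the deposited scale, median centring, no filter or a stricter one, serially correlated arrays, a linear trend, the array number as a term or as a split, leaving out the 5 dimmest arrays or any 1 array, and 3 harmonics. The number of genes that passed for phase, 33, was 19 on the deposited scale, where array medians differ 2.03-fold, and 30 to 33 under the others, with adjusted p-values of single members up to 0.359 on the deposited scale. No member reversed. The fitted peaks, with a median of 204.8 degrees, had medians of 170.6 with a linear trend, 182.1 with median centring, 219.9 on the deposited scale and 130 with 3 harmonics, and 202.6 to 211.0 under the others. Without any 1 array it stayed at 33 for phase and 33 for faster variation, which was 24 with serially correlated arrays. The count with a swing of 2-fold or more, 0, was 1 with median centring, with serially correlated arrays, with a linear trend and within the higher-numbered arrays, and 2 with 3 harmonics, and 0 to 1 without any 1 array. The swing of RPN4 was 0.88 (without the array at 29.67 degrees) to 1.02 (without that at 53.41 degrees). The ratio to RPN4 passed for 7 of 32 with serially correlated arrays, 2 within the lower-numbered arrays and 29 to 32 without any 1 array; the cause was not tested.

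Mean swings of alpha ring, beta ring, base and lid were 0.32, 0.40, 0.29 and 0.40 on the deposited scale, 0.56, 0.64, 0.52 and 0.67 with median centring, 0.38, 0.43, 0.32 and 0.43 within the lower-numbered arrays, 0.59, 0.70, 0.56 and 0.72 within the higher-numbered arrays, and 2.17, 2.15, 2.05 and 2.18 SDs with each gene divided by its SD, a unit that is not log2. Without any 1 array they were 0.43 to 0.49, 0.49 to 0.57, 0.38 to 0.44 and 0.51 to 0.58. Subunit genes that correlated best 1 array after RPN4 numbered 3 on the deposited scale, 18 with median centring and 11 to 30 without any 1 array, the 11 without that at 29.67 degrees; subunit genes with a later mid-rise numbered 32 in each alternative tried. Both timing counts and their alternatives were added after the data were seen. No paired analysis was possible because all arrays form 1 group. What limits precision is 1 array per angle over 1 cycle.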
